A study of Mus musculus with 33 samples.

Results

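The genes described here are the translation initiation factor genes, taken as every symbol of the mRNA table that begins with Eif followed by a digit from 1 to 6. They numbered 54 of the 12348 listed genes, and all 54 passed the filter on low values. They comprise 13 genes of start codon selection and the ternary complex, 5 subunits of eIF2B, 4 eIF2 kinases, 14 subunits of eIF3, 12 genes of cap binding and the eIF4F complex, 3 eIF4E-binding proteins (4E-BPs) and 3 genes of eIF5A and eIF6.

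The cells were mouse esophageal basal cells grown in culture, with floxed alleles of Nudt21, which encodes the CFIm25 subunit of the poly(A) site factor cleavage factor Im, and a tamoxifen-activated Cre under the Rosa26 locus, written by the labels as Nudt21 fl/fl; R26CreER. Control cells, the day 0 group, kept the floxed allele and received ethanol for 4 days. KO cells received 0.05 uM 4-hydroxytamoxifen and were collected at day 2, 4 or 6. Hypomorph cells received 0.05 uM 4-hydroxytamoxifen together with 50 ng/ml doxycycline and were collected at day 4 or 6, so that doxycycline and the hypomorph state cannot be told apart. Among the mRNA groups only the control received ethanol. Against day 0, loss of Nudt21 thus cannot be told apart from 4-hydroxytamoxifen, nor at days 2 and 6 from days in culture. All groups shared a medium that held Y-27632, CHIR99021, A83-01 and DMH-1. mRNA was sequenced in 18 libraries, 3 in each of 6 groups, and nothing in the labels says that the 3 came from separate cultures or animals, so the p-values cover only the variation among these 3, part or all of which could be technical. PAS-seq, a method that maps where transcripts end, was pooled by the authors over 3 samples each of control, KO day 4 and hypomorph day 4.

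Translation of most mRNAs starts when eIF4E binds the cap, eIF4G bridges it to eIF3 on the small ribosomal subunit, and the helicase eIF4A, helped by eIF4B or eIF4H, opens the leader. The 4E-BPs compete with eIF4G for eIF4E when they are not phosphorylated by mTOR. eIF2 brings the initiator tRNA as a ternary complex with GTP, eIF1 and eIF1A guard the choice of the start codon, eIF5 and eIF5B complete the step, and eIF2B reloads eIF2 with GTP. The 4 eIF2 kinases, HRI (Eif2ak1), PKR (Eif2ak2), PERK (Eif2ak3) and GCN2 (Eif2ak4), phosphorylate eIF2 alpha, which blocks eIF2B, in the integrated stress response.

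The mRNA values are CPM rescaled by the authors (a read count relative to library size) and are written scaled CPM. Depth ranged from 16.3 to 91.4 M (mega) reads on listed genes, and no member had fewer than 56 reads in any library. The column totals ranged from 910422 to 1170229 and were highest in the 3 hypomorph day 6 libraries (1069762 to 1170229). Nudt21 was at 12.2 to 14.2 scaled CPM in the day 0 libraries, 1.34 to 2.01 at KO day 6 and 0.999 to 3.94 at hypomorph day 6, and its level at day 6 was not called different between the states (log2 difference 0.43 ± 0.28, SE, limma adjusted p = 0.187). At day 4 Nudt21 was at 2.44 to 3.95 scaled CPM in KO and at 3.85 to 6.25 in hypomorph cells. Which exons are deleted is not given in the sources used here. The basal markers Krt5, Krt14, Krt15, Trp63, Sox2, Itga6 and Itgb4 summed to between 22730.5 and 28939.1 scaled CPM in the libraries of the 6 groups. Within that list Krt15 was at 275.0 to 581.0 at day 0, 1221.0 to 1403.1 at KO day 6 and 528.0 to 592.0 at hypomorph day 6, and Sox2 was at 56.9 to 68.1, 51.3 to 55.9 and 31.0 to 34.8. The columnar epithelium markers were Krt8, Krt18, Krt19 and Epcam. They summed to 104.0 to 134.0 at day 0, 212.0 to 227.0 at KO day 6 and 116.0 to 143.0 at hypomorph day 6. That sum separated the states at day 6 through Krt19 (139.0 to 148.0 in KO, 69.8 to 91.4 in hypomorph) and Epcam (61.6 to 72.0, 37.2 to 45.5). Krt18 overlapped between the states (5.37 to 5.58, 4.71 to 6.13), and Krt8 was higher in the hypomorph (0.686 to 1.62, 1.8 to 2.56). None of 4 fibroblast and 2 endothelial markers was among the listed genes. Markers of leukocytes (mostly Cd68) summed to 76.4 to 81.3 at day 0, 460.0 to 499.0 at KO day 6 and 472.0 to 512.0 at hypomorph day 6. Within that list only Cd68 rose, from 62.9 to 81.3 at day 0 to 444.0 to 498.0 at KO day 6 and 470.0 to 510.0 at hypomorph day 6. Ptprc was at 0.0 to 10.0, 0.594 to 13.3 and 0.845 to 1.42 in these groups, and Laptm5 was at 3.52 or lower in every library. Acta2 went from 5.06 to 8.68 at day 0 to 49.2 to 68.5 at day 6 of both states. The hepatocyte gene Alb varied within groups (6.97 to 517.0 at day 0, 17.2 to 618.0 at KO day 6, 24.8 to 40.6 at hypomorph day 6). The part of these in the results below was not tested, other than by leaving out the libraries with Alb above 100.

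At day 6, 41 of the 54 members were higher in hypomorph than in KO cells and 2 were lower (33 and 6 with equal library totals). Of all tested genes, 64.7% were called in that comparison, 4651 higher and 3337 lower in hypomorph cells. In KO cells 31 of 54 members fell and 10 rose against day 0, with a median log2 change of −0.31 beside −0.03 over all 12344 tested genes. In hypomorph cells 20 rose and 15 fell, with a median of 0.08 beside 0.03. Of all tested genes, 71.1% were called at KO day 6 and 67.2% at hypomorph day 6 (limma, adjusted p under 0.05), so the shares of members called, 75.9% and 64.8%, were near the background, and it is the directions that are described here. Of all tested genes, 4144 rose and 4632 fell at KO day 6, and 4437 rose and 3861 fell at hypomorph day 6. These are the background for the day 6 counts by complex and by list below. The hypomorph split of the members depended on scaling: with every library set to the same total, 18 rose and 24 fell. As a share of all reads on listed genes, the members together made up 1.55% ± 0.00632 (SD, n = 3) at day 0, 1.3% ± 0.0187 at KO day 6 and 1.59% ± 0.0436 at hypomorph day 6. Bulk RNA cannot tell fewer cells of a type from less RNA per cell.

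**Figure D1:**
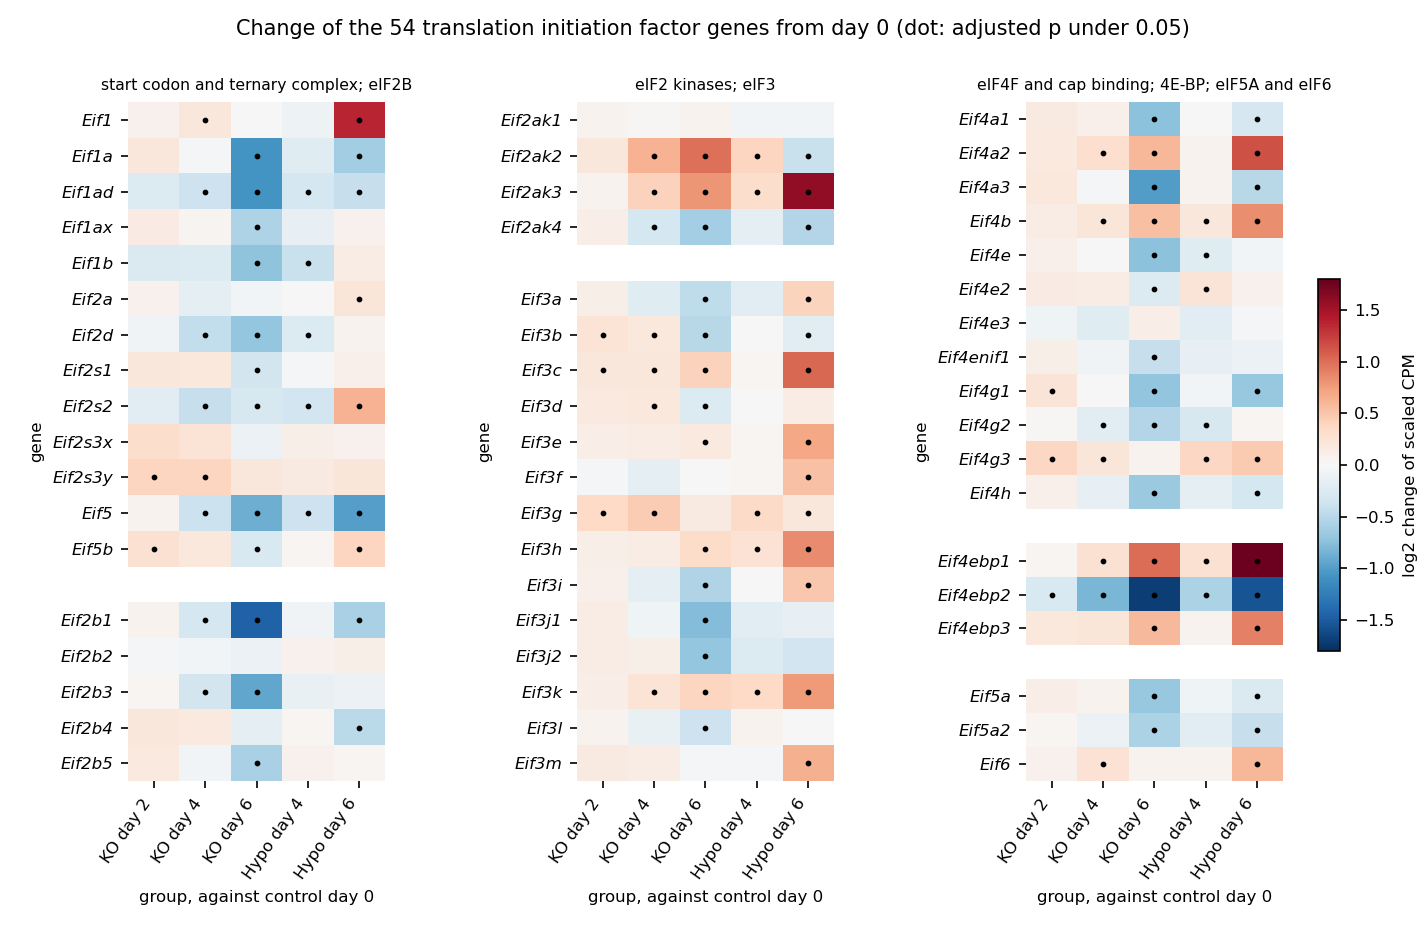
Log2 change of scaled CPM from control day 0 (colour) for all 54 genes in the 5 other groups, ordered by role. Dots mark limma adjusted p under 0.05, of which KO day 6 has 41 and hypomorph day 6 has 35. The blue column at KO day 6, with 31 falls, and the red eIF3 block at hypomorph day 6, with 9 rises, are the main features.

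More members, and more of all tested genes, were called against day 0 at each later day. At KO day 2, 7 members rose and 1 fell, against 19.0% of all genes called; the largest rise was Eif2s3y, the Y-linked copy of eIF2 gamma, and the only fall was Eif4ebp2. Eif2s3y was at 45.0, 50.8 and 42.2 scaled CPM at day 0 and at 63.7, 60.0 and 55.6 at KO day 2 (log2 change 0.38 ± 0.1, SE, limma adjusted p = 0.00795). Without the libraries with Alb above 100 the change was 0.23 and was not called. That day 2 count rested on few libraries: it was 2 without KO day 2 replicate 1, 4 without KO day 2 replicate 3 and 4 without day 0 replicate 1. At KO day 4, 14 rose and 9 fell (46.0% of all genes called). At hypomorph day 4, 9 rose and 8 fell (31.7% of all genes called), and the count of 17 became 11 without day 0 replicate 1 or 3 and 9 without hypomorph day 4 replicate 2 or 3. From day 4 to day 6, 35 members fell and 10 rose in KO cells (59.7% of all genes called), while 22 rose and 13 fell in hypomorph cells (61.9% of all genes called). With equal library totals the hypomorph split was 19 and 19. Without the 7 libraries with Alb above 100, which leaves 1 day 0 library, fewer members were called at KO day 4, at hypomorph day 4 and between KO day 4 and KO day 6. The median log2 change of the members was then 0.07, −0.03 and −0.29, beside 0.04, −0.01 and −0.33 with all libraries.

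The 4E-BPs held the largest rise and the largest fall of the family at day 6 of both states. Eif4ebp2 fell in both states, Eif4ebp1 rose in both, and Eif4ebp3, at a much lower level, rose as well. Eif4ebp2 was at 376, 388 and 414 scaled CPM in the day 0 libraries. It was at 308, 324 and 343 at KO day 2, at 229, 220 and 220 at KO day 4 and at 114, 117 and 135 at KO day 6. No KO library overlapped the day 0 libraries, and the level was lower at each later day. In the hypomorph it was at 244, 272 and 279 at day 4 and at 124, 135 and 139 at day 6. The log2 change from day 0 was −1.69 ± 0.08 (SE, limma adjusted p = 2.56e-17) at KO day 6, a 3.23-fold lower level, and −1.56 ± 0.08 (adjusted p = 1.61e-16) at hypomorph day 6. At day 6 the 2 states overlapped (log2 difference 0.13, 95% interval −0.03 to 0.28, limma adjusted p = 0.137), whereas at day 4 the hypomorph was higher (0.25 ± 0.08, adjusted p = 0.0165).

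Eif4ebp1 was at 102, 126 and 93.5 scaled CPM at day 0, at 120, 98.4 and 109 at KO day 2 and at 117, 145 and 125 at KO day 4. It was at 216, 209 and 218 at KO day 6, at 122, 122 and 141 at hypomorph day 4 and at 385, 322 and 377 at hypomorph day 6. The day 6 libraries of both states lay above all others, with the hypomorph above the KO. The rise was 2.01-fold at KO day 6 (log2 1.01 ± 0.1, limma adjusted p = 1.7e-09) and 3.38-fold at hypomorph day 6 (log2 1.76 ± 0.1, adjusted p = 5.04e-14). Eif4ebp1 also has the largest rise from day 4 to day 6 in both states, 0.74 in KO and 1.49 in hypomorph cells on the log2 scale.

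Eif4ebp3 was at 9.06, 9.79 and 11.6 scaled CPM at day 0, at 14.7, 15.1 and 16.1 at KO day 6 and at 16.4, 21.2 and 21.1 at hypomorph day 6. Its earlier groups, between 9.97 and 14.0, overlapped day 0. The log2 change was 0.58 ± 0.14 (limma adjusted p = 0.000534) at KO day 6 and 0.91 ± 0.14 (adjusted p = 1.49e-06) at hypomorph day 6. To set genes beside each other, levels were divided by the deposited gene length, which was the same in every group. In some genes, such as Eif4ebp2, the 3′ ends moved (PAS-seq, below). The part of this in the shares per kilobase was not tested. Of the summed 4E-BP level per kilobase, Eif4ebp1 made up 58.7% ± 4.51 (SD, n = 3) at day 0. It made up 86.5% ± 0.761 at KO day 6 and 90.2% ± 1.47 at hypomorph day 6. Eif4ebp2 went from 36.6% ± 3.75 to 8.26% ± 0.6 and 5.62% ± 0.644. The summed level per kilobase of the 3 genes was 186.0 ± 15.3 at day 0, 253.0 ± 6.52 at KO day 6 and 408.0 ± 33.1 at hypomorph day 6.

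**Figure D2:**
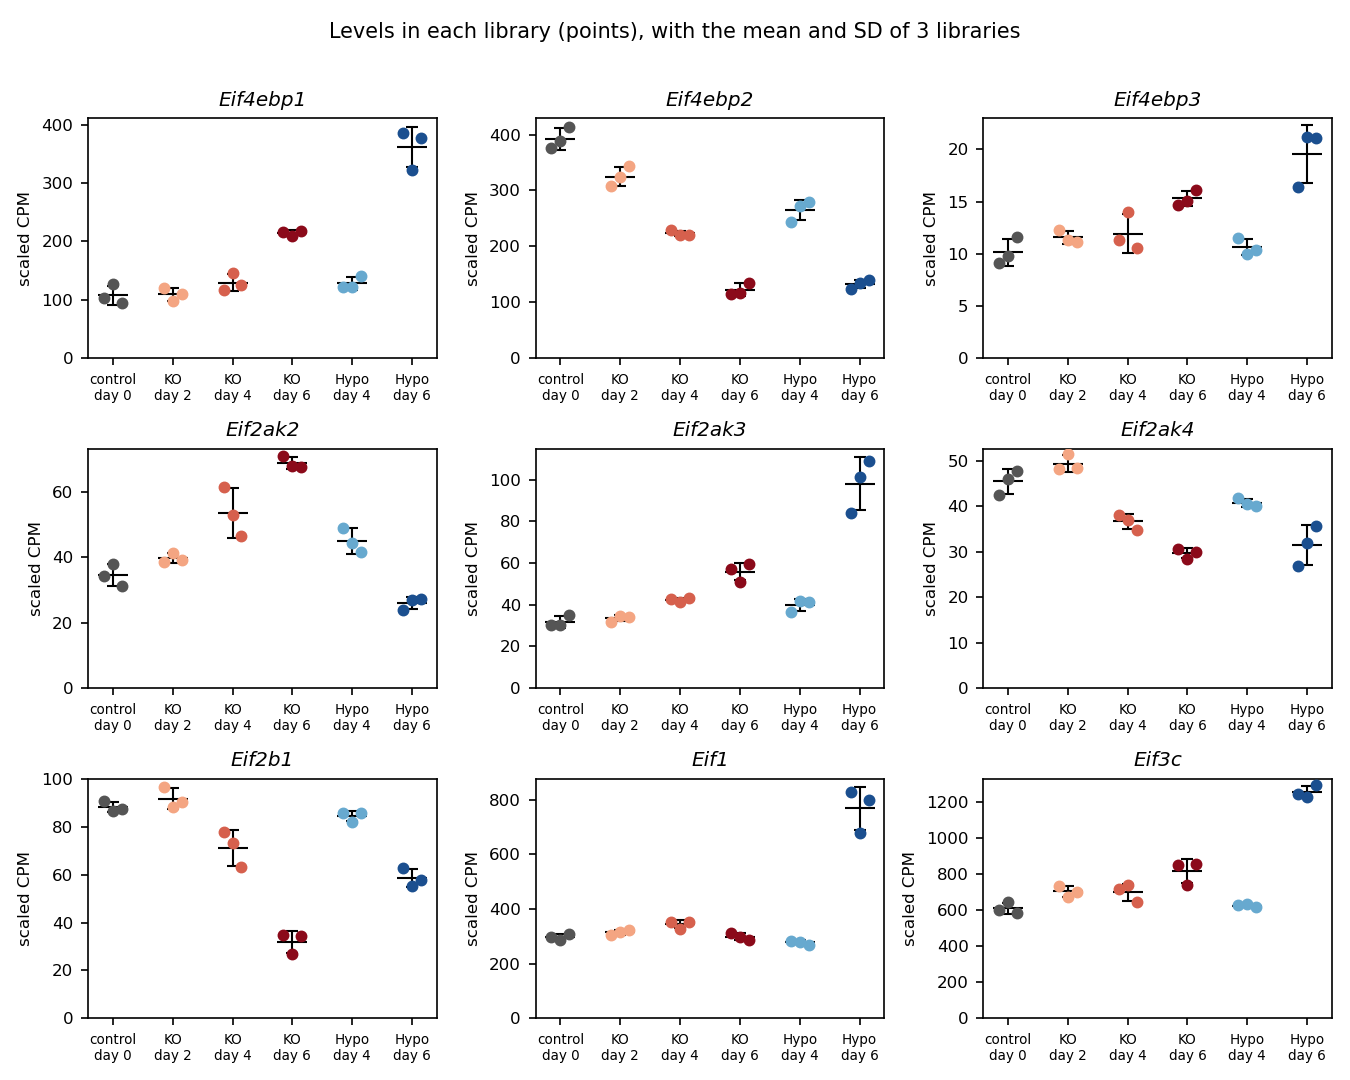
Scaled CPM of 9 genes in each of the 18 libraries (points), with the mean and SD of 3 libraries per group. Eif4ebp2 fell from 376 to 414 at day 0 to 114 to 139 at day 6 of both states, while Eif1 was at 679 to 827 in hypomorph day 6 and at 354 or lower in all other libraries.

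The eIF2 kinases moved apart from one another. Eif2ak2 rose in KO cells and fell in hypomorph cells by day 6, Eif2ak3 rose in both, Eif2ak4 fell in both, and Eif2ak1 was not called in any comparison. Eif2ak2, which encodes the kinase PKR that double-stranded RNA activates, was at 34.4, 38 and 31.3 scaled CPM at day 0. It was at 38.5, 41.4 and 39.2 at KO day 2, at 61.4, 52.9 and 46.4 at KO day 4 and at 70.9, 68 and 67.5 at KO day 6. In hypomorph cells it was at 49.1, 44.4 and 41.5 at day 4 and at 24, 27 and 27.4 at day 6. All KO day 6 libraries were thus above day 0 and all hypomorph day 6 libraries below it. The log2 change was 0.99 ± 0.1 (limma adjusted p = 8.56e-10) and −0.4 ± 0.1 (adjusted p = 0.000987). The direct difference between the states at day 6 was −1.38 ± 0.1 (adjusted p = 2.45e-12), the largest fall of any member in that comparison.

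The annotated start region of Eif2ak2 is shown because this gene is known from mouse and human to be interferon-inducible and its level separated the states. The capitals mark a match to GAAANNGAAA, a core found in interferon response elements, searched on both strands and added with the results known. It lies on RefSeq's GRCm38.p6 at chr17:78882523-78882822, minus strand, from 250 bases before to 50 bases after the start, and the match begins 18 bases past the start.
Eif2ak2: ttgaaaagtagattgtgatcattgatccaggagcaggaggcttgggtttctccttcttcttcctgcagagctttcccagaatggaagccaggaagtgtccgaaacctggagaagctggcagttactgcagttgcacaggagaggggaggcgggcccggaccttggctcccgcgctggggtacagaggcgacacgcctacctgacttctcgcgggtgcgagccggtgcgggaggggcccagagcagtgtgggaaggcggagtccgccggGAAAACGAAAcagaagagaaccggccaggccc
The same letters occurred in the windows of 4 of the 43 members that have one (9.3%), the others being Eif2s1, Eif2s3x and Eif3a. They occurred in 3.99% of 27025 gene symbols, which include genes not listed here. Eif2s1 and Eif3a fell at KO day 6 and Eif2s3x was not called, so the match did not go with one direction. A match describes these letters and does not show binding.

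Eif2ak3, which encodes the endoplasmic reticulum stress kinase PERK, was at 30.4, 30.1 and 35.1 scaled CPM at day 0 and at 31.8, 34.4 and 34.3 at KO day 2. It was at 42.8, 41.1 and 43.1 at KO day 4 and at 57.2, 51.1 and 59.3 at KO day 6. In hypomorph cells it was at 36.3, 41.7 and 41.4 at day 4 and at 84, 101 and 109 at day 6, above every other library. The log2 change from day 0 was 0.8 ± 0.1 (limma adjusted p = 2.61e-08) at KO day 6 and 1.6 ± 0.1 (adjusted p = 2.41e-14), or 3.04-fold, at hypomorph day 6. The 2 states differed at day 6 by 0.8 ± 0.1 (adjusted p = 4.53e-08).

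Eif2ak4, the amino acid sensor GCN2, went from 42.6, 46.1 and 47.9 scaled CPM at day 0 to 30.7, 28.5 and 30 at KO day 6 and 26.8, 32 and 35.7 at hypomorph day 6. The intermediate groups were at 48.2, 51.5 and 48.5 (KO day 2), 38.1, 37.1 and 34.9 (KO day 4) and 41.8, 40.5 and 40 (hypomorph day 4). Its log2 change was −0.61 ± 0.09 (limma adjusted p = 1.89e-06) and −0.53 ± 0.09 (adjusted p = 1.56e-05) at day 6, and the states overlapped. Eif2ak1, the heme-regulated kinase, lay between 44 and 53 scaled CPM in all 18 libraries, with day 0 at 51.1, 45.4 and 48. Per kilobase, Eif2ak1 held the largest share of the 4 kinases at day 0 (43.2% ± 2.26, SD, n = 3) and at KO day 6 (36.2% ± 0.631), and Eif2ak3 did at hypomorph day 6 (41.5% ± 2.48, beside 34.5% ± 3.28 for Eif2ak1).

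In the list of regulators and targets of eIF2 phosphorylation, 8 genes were listed, of which 4 rose and 3 fell at day 6 in each state. Ppp1r15a (GADD34), which directs phosphatase 1 to eIF2 alpha, rose by 1.69 ± 0.12 on the log2 scale (limma adjusted p = 4.01e-13) at KO day 6 and by 3.67 ± 0.12 (adjusted p = 5.62e-20) at hypomorph day 6. Ddit3 (CHOP) rose by 2.53 ± 0.11 (adjusted p = 2.51e-17) and 3.47 ± 0.11 (adjusted p = 6.45e-20), and Trib3 by 2.53 and 3.05. Atf4 rose by 0.25 ± 0.08 (adjusted p = 0.00416) in KO cells and by 1.05 ± 0.08 (adjusted p = 1.1e-12) in hypomorph cells. Dnajc3, a co-chaperone known to inhibit eIF2 kinases, fell by 1.37 and by 0.72, and Ppp1r15b and Gcn1l1 fell by 0.29 to 0.44 in both states. The level of Ppp1r15a at day 6 was higher in hypomorph than in KO cells by 1.98 ± 0.12 (adjusted p = 4.83e-14).

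Of the 5 subunits of eIF2B, 2 fell at KO day 4 (46.0% of all genes called) and 3 at KO day 6 (Eif2b1, Eif2b3 and Eif2b5). Eif2b2 (−0.11) and Eif2b4 (−0.17) were not called at KO day 6, and the median was −0.58. At hypomorph day 6, Eif2b1 and Eif2b4 fell. Against KO day 6, 4 subunits were higher and 1 was lower (64.7% of all genes called, 58.2% of those higher). With edgeR, DESeq2, equal totals or quantile normalization, 3 were higher and 1 lower. Eif2b1, the alpha subunit and part of the regulatory part that senses phosphorylated eIF2, was at 90.8, 86.7 and 87.4 scaled CPM at day 0 and at 96.6, 88.5 and 90.3 at KO day 2. It was at 77.7, 73.1 and 63.1 at KO day 4 and at 34.8, 26.8 and 34.4 at KO day 6. In hypomorph cells it was at 85.9, 82 and 85.8 at day 4 and at 62.7, 55.4 and 58 at day 6. The KO day 6 libraries were below all others. The fall was 2.75-fold at KO day 6 (log2 −1.46 ± 0.09, limma adjusted p = 5.17e-14) and 1.5-fold at hypomorph day 6 (−0.59 ± 0.09, adjusted p = 2.86e-06). From day 4 to day 6 in KO cells Eif2b1 had the largest fall of the family, −1.15 ± 0.09 (adjusted p = 2.4e-11). Eif2b3, the gamma subunit, had a log2 change of −0.93 and Eif2b5, the catalytic epsilon subunit, of −0.58 at KO day 6, while in hypomorph cells neither was called (−0.11 and 0.04). Eif2b4 fell by 0.49 at hypomorph day 6, and Eif2b2 was not called against day 0 at any time.

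Among the start codon and ternary complex genes, 9 of 13 fell and none rose at KO day 6, whereas 4 rose and 3 fell at hypomorph day 6. edgeR, DESeq2, equal totals and quantile normalization each called 1 rise at KO day 6. Eif1, which holds the scanning ribosome open until a start codon is met, was the member most raised in hypomorph over KO cells at day 6. It was at 297, 286 and 308 scaled CPM at day 0, at 304, 316 and 323 at KO day 2 and at 354, 327 and 351 at KO day 4. It was at 312, 297 and 286 at KO day 6, at 284, 281 and 270 at hypomorph day 4 and at 827, 679 and 801 at hypomorph day 6. Only the hypomorph day 6 libraries stood far from day 0, at 2.58-fold its mean (log2 1.37 ± 0.07, limma adjusted p = 9.56e-16). At KO day 6 the log2 change was 0.01 (95% interval −0.14 to 0.15). At day 4 the hypomorph was lower than the KO by 0.3 on the log2 scale (adjusted p = 0.00239), the largest called fall of that comparison.

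Eif1a and its X-linked copy Eif1ax encode eIF1A, and Eif1ad an eIF1A domain protein. Eif1a was at 236, 249 and 240 scaled CPM at day 0 and at 287, 265 and 283 at KO day 2. It was at 264, 232 and 212 at KO day 4, at 116, 102 and 125 at KO day 6, at 227, 211 and 188 at hypomorph day 4 and at 183, 138 and 153 at hypomorph day 6. The KO day 6 libraries were the lowest, and the log2 change was −1.08 ± 0.1 (limma adjusted p = 1.21e-10), against −0.62 ± 0.1 (adjusted p = 2.49e-06) at hypomorph day 6. Eif1ad was at 86.5, 100 and 92.1 at day 0, at 79.8, 73.3 and 82.2 at KO day 2 and at 67.7, 77 and 71 at KO day 4. It was at 43.9, 38.6 and 50.1 at KO day 6, at 72.6, 70.5 and 80.2 at hypomorph day 4 and at 90.1, 60.2 and 62.2 at hypomorph day 6. Its fall of 1.07 ± 0.12 (adjusted p = 1.96e-08) at KO day 6 left no overlap with day 0, while 1 hypomorph day 6 library lay inside the day 0 range.

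Eif5, the GTPase activator of eIF2, fell in both states. It was at 503, 506 and 535 scaled CPM at day 0, at 552, 519 and 548 at KO day 2 and at 426, 403 and 352 at KO day 4. It was at 275, 258 and 304 at KO day 6, at 407, 409 and 375 at hypomorph day 4 and at 330, 215 and 245 at hypomorph day 6. The day 6 log2 changes were −0.88 ± 0.11 (limma adjusted p = 2.86e-07) and −0.99 ± 0.11 (adjusted p = 6.83e-08), and the difference between the states was −0.1 (95% interval −0.33 to 0.12). Eif1b, Eif1ax and Eif2d fell by 0.73, 0.55 and 0.69 at KO day 6 and were not called at hypomorph day 6, where Eif2s2, the beta subunit of eIF2, rose by 0.62. The reads of Eif1 and Eif1b, Eif1a and Eif1ax, Eif2s3x and Eif2s3y, Eif3j1 and Eif3j2, and Eif4a1 and Eif4a2 may be split between close copies, since the handling of reads that fit several places is not given in the sources used here.

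eIF3 is the scaffold that joins mRNA, ribosome and eIF4G, and its subunits were read as a group of 14. At KO day 6, 4 of 14 rose (Eif3c, Eif3e, Eif3h and Eif3k) and 7 fell (Eif3a, Eif3b, Eif3d, Eif3i, Eif3j1, Eif3j2 and Eif3l). At hypomorph day 4, 3 rose (median 0.02, with 31.7% of all genes called). At hypomorph day 6, 9 rose, 1 fell and 4 were not called, with a median of 0.44 beside 0.03 over all genes. The counts were 8 and 4 with equal library totals and 7 and 2 with quantile normalization. Eif3c was at 602, 644 and 583 scaled CPM at day 0, at 735, 675 and 702 at KO day 2 and at 715, 739 and 647 at KO day 4. It was at 853, 741 and 855 at KO day 6, at 628, 634 and 616 at hypomorph day 4 and at 1246.1, 1226.1 and 1293.3 at hypomorph day 6. Its rise was 2.06-fold at hypomorph day 6 (log2 1.04 ± 0.07, limma adjusted p = 1.91e-13) and 1.34-fold at KO day 6 (0.42 ± 0.07, adjusted p = 4.86e-06). Eif3h, Eif3k, Eif3e, Eif3m and Eif3f rose by 0.85, 0.77, 0.7, 0.64 and 0.53 at hypomorph day 6. At KO day 6, Eif3j1, Eif3j2, Eif3i and Eif3b fell by 0.78, 0.7, 0.54 and 0.5. Without the libraries with Alb above 100, Eif3j2 had a change of 0 at KO day 6 (adjusted p = 0.995).

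Eif3a, the largest subunit, was at 889, 958 and 950 scaled CPM at day 0, at 1059.6, 949 and 1011.3 at KO day 2 and at 883, 826 and 708 at KO day 4. It was at 678, 622 and 735 at KO day 6, at 850, 851 and 752 at hypomorph day 4 and at 1044.3, 1276.5 and 1399.5 at hypomorph day 6. KO day 6 lay below day 0 and hypomorph day 6 above it (log2 −0.46 ± 0.09, limma adjusted p = 8.66e-05, and 0.4 ± 0.09, adjusted p = 0.000465). With quantile normalization the Eif3a change at hypomorph day 6 was 0.08 and was not called. Without the libraries with Alb above 100, which leaves 1 day 0 library, its change at KO day 6 was −0.38. Of the 14 subunits, 12 were higher in hypomorph than in KO cells at day 6 and none lower. Of all tested genes, 64.7% were called there and 58.2% of those were higher. Eif3i showed the widest gap (1.02 ± 0.07, limma adjusted p = 9.72e-13). Quantile normalization gave 9 higher and 1 lower.

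Of the 12 cap-binding and eIF4F genes, 3 rose and 1 fell at KO day 4 (46.0% of all genes called). At KO day 6, 8 fell, 2 rose and 2 were not called (median −0.47), and at hypomorph day 6, 4 fell and 3 rose (median −0.04, or 7 and 3 with equal library totals). The pair of helicase genes went opposite ways. Eif4a1 was at 753, 751 and 743 scaled CPM at day 0, at 884, 773 and 866 at KO day 2, at 804, 848 and 738 at KO day 4 and at 449, 409 and 491 at KO day 6. In hypomorph cells it was at 788, 742 and 706 at day 4 and at 624, 566 and 641 at day 6. Eif4a2 was at 286, 274 and 262 at day 0, at 308, 320 and 305 at KO day 2, at 375, 320 and 322 at KO day 4 and at 425, 406 and 418 at KO day 6. In hypomorph cells it was at 308, 286 and 265 at day 4 and at 576, 577 and 673 at day 6. Eif4a1 thus had its lowest values at KO day 6 and Eif4a2 its highest at hypomorph day 6. The log2 changes at day 6 were −0.74 ± 0.08 (limma adjusted p = 1.09e-09) in KO and −0.3 ± 0.08 (adjusted p = 0.0011) in hypomorph cells for Eif4a1, and 0.6 ± 0.08 (adjusted p = 5.22e-08) and 1.15 ± 0.08 (adjusted p = 1.63e-13) for Eif4a2. Per kilobase, Eif4a2 supplied 17.1% ± 0.519 (SD, n = 3) of the pair at day 0, 34.3% ± 1.75 at KO day 6 and 35.9% ± 1.55 at hypomorph day 6. Eif4a3, the helicase of the exon junction complex rather than of eIF4F, was at 118, 144 and 138 scaled CPM at day 0. It was at 161, 134 and 162 at KO day 2, at 117, 145 and 132 at KO day 4 and at 64.1, 61.3 and 74.1 at KO day 6, and at 142, 133 and 143 and at 102, 85.3 and 94.8 in hypomorph cells at days 4 and 6. It had a log2 change of −1 ± 0.1 (adjusted p = 3.48e-10) at KO day 6 and −0.5 ± 0.1 (adjusted p = 4.66e-05) at hypomorph day 6.

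**Figure D3:**
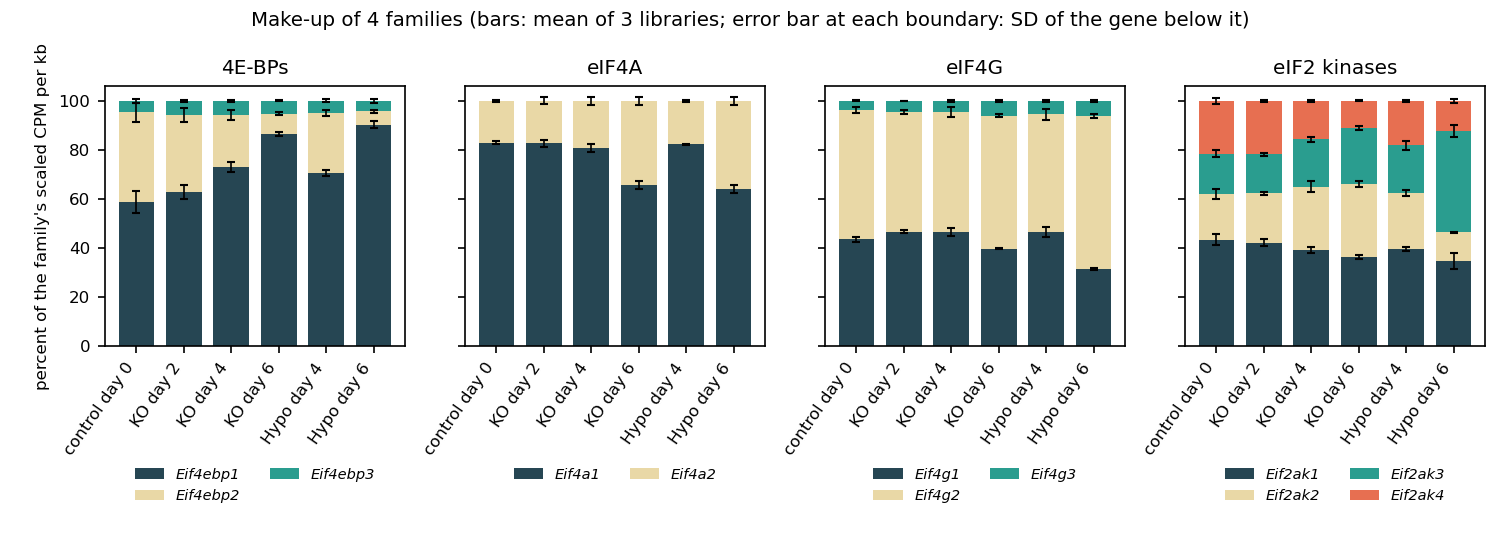
Make-up of the 4E-BPs, eIF4A, eIF4G and the eIF2 kinases in each group, as the percent of each family's summed scaled CPM per kilobase (bars, mean of 3 libraries, with the SD of each gene at its upper boundary). Eif4a2 went from 17.1% to 35.9% and Eif4ebp1 from 58.7% to 90.2% between day 0 and hypomorph day 6.

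Eif4e, the cap-binding protein, was at 111, 105 and 113 scaled CPM at day 0, at 120, 109 and 123 at KO day 2 and at 115, 108 and 104 at KO day 4. It was at 65.3, 62.3 and 69.2 at KO day 6, at 104, 89.7 and 89.2 at hypomorph day 4 and at 102, 100 and 116 at hypomorph day 6. Only KO day 6 stood well below the rest (log2 −0.74 ± 0.08, limma adjusted p = 3.69e-09), and hypomorph day 6 overlapped day 0 (−0.05, 95% interval −0.22 to 0.11). Eif4g1, the main scaffold, fell in both states, by 0.71 and 0.68 on the log2 scale. Eif4g2, which lacks the eIF4E site and serves cap-independent initiation, fell by 0.53 at KO day 6 and had a change of 0.04 at hypomorph day 6. Per kilobase Eif4g2 went from 52.8% ± 1.19 (SD, n = 3) of the 3 eIF4G genes at day 0 to 54.4% ± 0.476 at KO day 6 and 62.6% ± 0.846 at hypomorph day 6.

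Eif4b, the cofactor of eIF4A, was at 809, 882 and 828 scaled CPM at day 0, at 954, 884 and 913 at KO day 2 and at 1010.5, 1005.4 and 922 at KO day 4. It was at 1240.4, 1146 and 1269.3 at KO day 6, at 965, 955 and 978 at hypomorph day 4 and at 1406.8, 1440.3 and 1627.7 at hypomorph day 6. All later groups lay above day 0, with log2 changes of 0.54 ± 0.07 (limma adjusted p = 5.84e-08) and 0.83 ± 0.07 (adjusted p = 1.65e-11) at day 6. Eif4h, which can stand in for eIF4B, fell by 0.67 at KO day 6. Eif4enif1, the importer 4E-T that binds eIF4E, was at 68.5, 79.5 and 77.5 at day 0 and at 58.2, 49.5 and 62.3 at KO day 6 (log2 −0.41 ± 0.09, adjusted p = 0.000287). Its other groups were at 82.9, 75.7 and 85.6 (KO day 2), 72.9, 76.7 and 65.2 (KO day 4), 61.7, 66.9 and 74.3 (hypomorph day 4) and 70.1, 71.5 and 67.7 (hypomorph day 6). Eif4g3 was at 136, 147 and 161 at day 0, at 187, 183 and 202 at KO day 2, at 169, 181 and 168 at KO day 4 and at 153, 141 and 173 at KO day 6. In hypomorph cells it was at 177, 197 and 202 at day 4 and at 176, 218 and 223 at day 6, above day 0 in every library (0.47 ± 0.09, adjusted p = 3.91e-05). Eif5a, an elongation and termination factor despite its name, and its rare copy Eif5a2 fell by 0.68 and 0.57 at KO day 6, while Eif6, which keeps the ribosomal subunits apart, rose by 0.6 at hypomorph day 6.

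Start regions were searched for the E-box CACGTG, the site of Myc and related factors, which reads the same on both strands. The windows of 10 of 43 members (23.3%) held it, beside 8.09% of 27025 gene symbols and 7.15% of 32851 windows of the same length. Those symbols include genes outside the 12348 listed here, all of whose members are expressed, and the share over listed genes was not counted. Of the 10, 8 fell at KO day 6 (Eif1b, Eif3a, Eif4a1, Eif4e, Eif4g1, Eif4h, Eif5a and Eif5a2), Eif3k rose and Eif3f was not called, and of the 43 members with a window 26 fell and 6 rose. The stretches around the E-box are shown for 3 that fell, Eif4e, Eif4g1 and Eif5a, and for Eif3k, which rose, with the E-box in capitals. They lie on GRCm38.p6 at chr3:138527018-138527070 (plus strand), chr16:20672648-20672703 (plus), chr11:69921430-69921485 (minus) and chr7:28981902-28981957 (minus).
Eif4e: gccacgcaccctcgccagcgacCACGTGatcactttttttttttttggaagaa
Eif4g1: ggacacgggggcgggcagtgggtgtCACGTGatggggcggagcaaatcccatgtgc
Eif5a: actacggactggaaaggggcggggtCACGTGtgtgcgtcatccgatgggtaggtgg
Eif3k: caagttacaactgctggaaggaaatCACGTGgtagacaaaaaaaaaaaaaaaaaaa
The E-box shown began 54, 74 and 44 bases before the start that defines the window in Eif4g1, Eif5a and Eif3k. In Eif4e it began 228 bases before that start, and the window holds another at 64 bases. The Eif4g1 window also holds another, 15 bases past the start. A different window of Eif5a holds an E-box 178 bases before its own start. The starts used for Eif4e and Eif5a lie inside the annotated gene rather than at its outer end. TGATGNAA, the core of the composite element that ATF4 binds, occurred on either strand in 1 of 43 members, Eif2s3x, and in 4.51% of gene symbols. Presence or absence of the letters in these windows says nothing about what binds there.

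Hypomorph and KO cells were also compared directly. At day 6, 41 members were higher and 2 lower (Eif2ak2 and Eif2b4) in hypomorph cells, with a median log2 difference of 0.43. Over all tested genes the median was 0.07, 64.7% were called and 58.2% of those were higher. With equal library totals 33 were higher and 6 lower, and with quantile normalization 28 and 7. Eif2ak2 had the widest gap (−1.38). Among the members higher in hypomorph cells, the widest gaps after Eif1 (1.36 ± 0.07, limma adjusted p = 3.32e-15) and Eif3i were Eif2s2 at 0.91, Eif1b at 0.88 and Eif2b1 at 0.87. Eif4g1, Eif5 and Eif4ebp2 were not called, with differences of 0.03, −0.1 and 0.13. At day 4, 4 were higher and 5 lower, against 24.5% of all genes called, and no difference was larger than 0.37 on the log2 scale. That count of 9 was 14 to 16 with edgeR, DESeq2, equal totals, quantile normalization or the compared groups alone, 1 without hypomorph day 4 replicate 2 or 3 and 5 without KO day 4 replicate 1 or 2. Without KO day 4 replicate 3 it was 6. The change from day 4 to day 6 differed between the states in 36 members, 35 of them higher in the hypomorph (interaction in limma, 45.7% of all genes called). It was 1.66 ± 0.1 for Eif1 (adjusted p = 9.36e-13) and −1.14 ± 0.14 for Eif2ak2 (adjusted p = 2.92e-07). Alb was at 40.6 or lower in all 3 hypomorph day 6 libraries and at 220.0 and 618.0 in 2 of the KO day 6 libraries. Without the libraries with Alb above 100, the median log2 difference of the members at day 6 was 0.33, beside 0.05 over all genes.

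**Figure D4:**
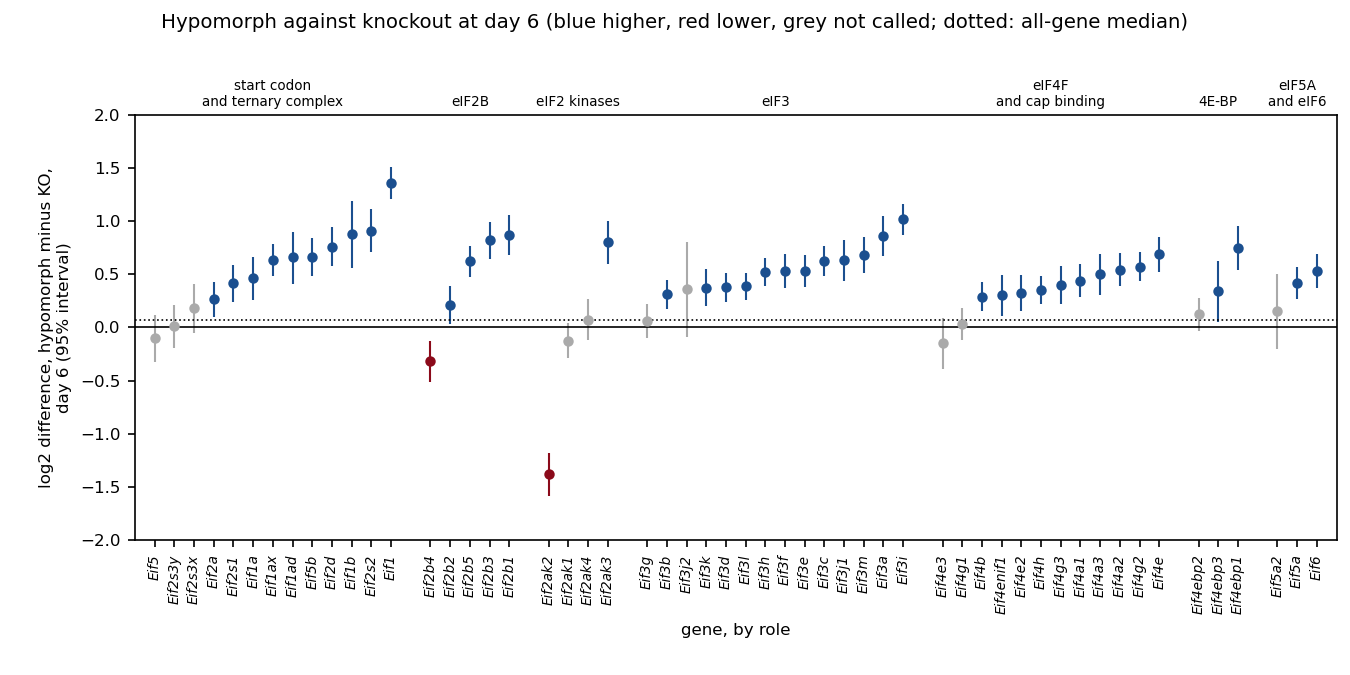
Log2 difference of scaled CPM, hypomorph day 6 minus KO day 6, with its 95% interval, for the 54 genes by role. Blue points (41) are called higher in hypomorph cells, red points (2) lower, grey points are not called, and the dotted line is the median of all tested genes at 0.07.

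Other genes around initiation were read from lists. Beside their counts, 71.1% of all tested genes were called at KO day 6 and 67.2% at hypomorph day 6. Of 15 mTOR and MNK regulators, 6 rose and 4 fell at KO day 6, and 7 rose and 3 fell at hypomorph day 6 (5 and 6 with equal library totals). Pdcd4, which inhibits eIF4A, rose by 2.24 ± 0.17 on the log2 scale (limma adjusted p = 3.35e-12) in KO and by 0.54 ± 0.17 (adjusted p = 0.00701) in hypomorph cells. Mknk2, a kinase of eIF4E, rose by 1.42 and 0.56, and Deptor, an mTOR inhibitor, fell by 2.11 and 1.32. Of 12 initiation-associated proteins, 8 fell and 4 rose at KO day 6, and 6 rose and 5 fell at hypomorph day 6 (5 and 6 with equal library totals). Bzw2, a mimic of eIF5, fell by 2.01 ± 0.07 (adjusted p = 4.94e-19) in KO and by 0.44 ± 0.07 (adjusted p = 8.05e-06) in hypomorph cells, and Pabpc1, the poly(A)-binding protein, fell by 0.25 in KO and rose by 0.49 in hypomorph cells. Of 6 elongation factor genes, 2 rose and 1 fell at KO day 6 and 4 rose and 1 fell at hypomorph day 6, with Eef1a1 up by 0.54 and 0.99 and Eef2 up by 0.5 and 0.88. With quantile normalization the KO split of the elongation list was 1 rise and 2 falls. Of 8 termination and recycling genes, 5 fell and 1 rose in KO cells and 2 fell and 2 rose in hypomorph cells, or 3 fell and 1 rose with equal totals or quantile normalization.

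PAS-seq bears on the same genes because Nudt21 acts on poly(A) sites. Of the 54 members, 31 were in the deposited PAS-seq table, which gives the ratio of proximal to distal site reads per group. The authors called 9 of the 31 (29.0%) changed at KO day 4, beside 51.6% of all 4324 listed genes, so members were called no more often than genes at large. The authors' table had 6 members called Short, a shift to the proximal site (49.4% of all genes), and 3 Long, a shift to the distal site (2.20% of all genes). The proximal share, computed from the ratios, had a median change over members of 0.44 percentage points, beside 19.8 over all genes. At control, 13 of the 31 had a proximal share under 10% and 5 over 90%, and 18 had a higher and 13 a lower share in KO. The ratios are the authors' pooled values, with unknown depth and no replicate spread.

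**Figure D5:**
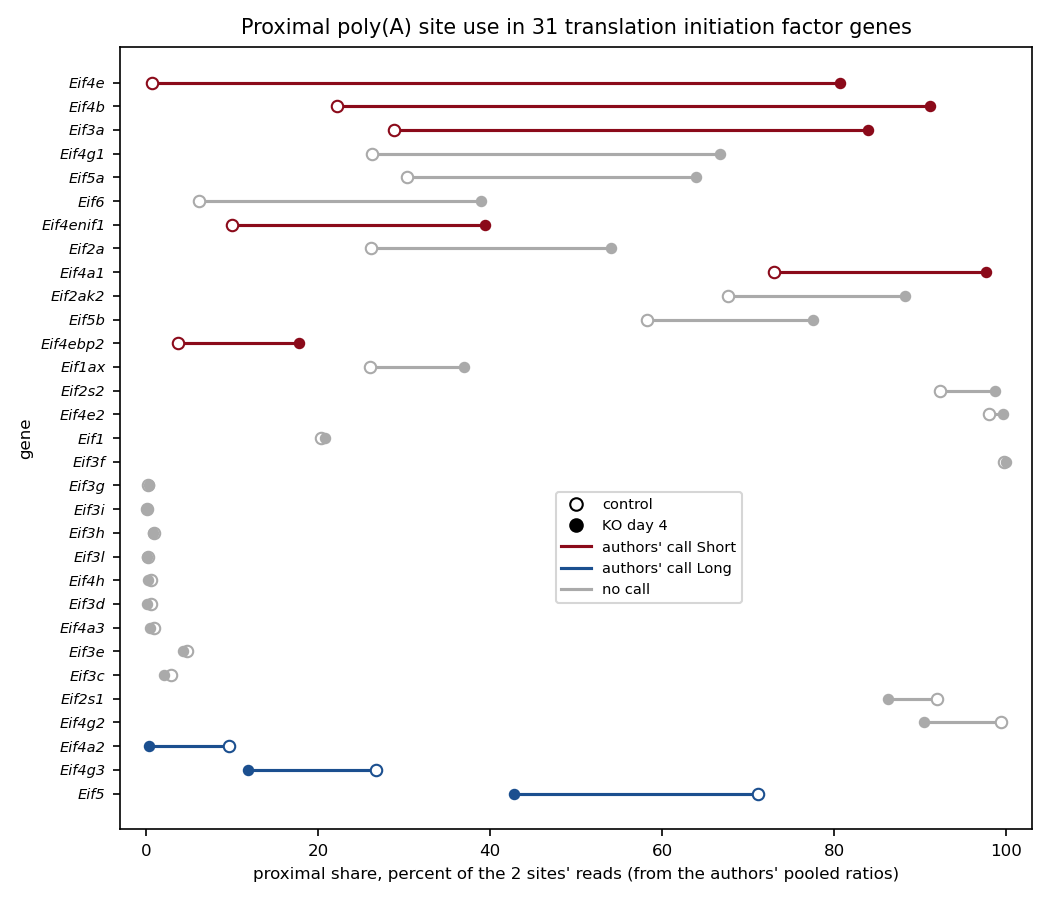
Proximal poly(A) site share, in percent of the reads of the 2 sites, in control (open) and KO day 4 (filled) for the 31 listed members, ordered by the change. Eif4e moved from 0.685% to 80.7%, while the eIF3 genes Eif3c, Eif3d, Eif3e, Eif3g, Eif3h, Eif3i and Eif3l stayed under 5% in both.

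The widest shift to the proximal site was in Eif4e, from 0.685% in control to 80.7% in KO. Eif4b went from 22.2% to 91.1%, Eif3a from 28.8% to 83.9% and Eif4a1 from 73.0% to 97.6%. Eif4enif1 went from 10.0% to 39.4% and Eif4ebp2 from 3.69% to 17.8%. The genes called Long were Eif4a2, from 9.71% to 0.389%, Eif4g3, from 26.8% to 11.9%, and Eif5, from 71.1% to 42.8%. The mRNA levels of these 9 genes at KO day 4 went several ways. Eif4e had a log2 change of −0.01 in mRNA and was not called, nor were Eif3a (−0.22), Eif4a1 (0.09) and Eif4enif1 (−0.07). Among the genes called Short, Eif4b rose by 0.22 and Eif4ebp2 fell by 0.82. Among those called Long, Eif4a2 rose by 0.3, Eif4g3 rose by 0.22 and Eif5 fell by 0.39. Whether reads lost with a shorter 3′ end changed these gene counts was not tested. Shifts of at least 10 percentage points without an authors' call were found in Eif4g1 (26.3% to 66.7%), Eif5a (30.4% to 64.0%), Eif6 (6.15% to 38.9%), Eif2a, Eif2ak2, Eif5b and Eif1ax. In hypomorph cells at day 4 the authors' table called 4 members, beside 22.7% of all genes: Eif4b Short, Eif4a2 and Eif4g3 Long, as in KO, and Eif5 Short, the opposite of its KO call. The hypomorph ratios equalled the KO ratios in 22 of the 31 members and in 3397 of all 4324 listed genes. They were equal in Eif4b, Eif4a2 and Eif4g3, so the match of these genes with KO is not a separate measurement. In Eif5 the ratios differed. The hypomorph ratios were not used, so the hypomorph directions rest on the authors.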

How the data were processed

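The members and gene lists were chosen with earlier results of these data known. mRNA reads were aligned with STAR to mm10 and counted with featureCounts, per the submitters' processing notes, with no versions; PAS-seq used mm9. The deposited mRNA values are a normalized signal, called scaled CPM here; whole reads were recovered from it within 0.1 read (100% of values). The submitters' processing notes also name edgeR, without a version. The authors' deposited log2 changes and p-values (FDR) stand in columns that name no test. By them 9, 23, 41, 16 and 36 members were called against day 0 (KO days 2, 4 and 6, hypomorph days 4 and 6). None was opposite to the calls made here. For PAS-seq, per gene and group, the authors deposited 1 pooled ratio, proximal over distal; the share is ratio/(1 + ratio). Deposited gene length (an "other" value of the authors) gave the levels per kilobase.

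Here log2(scaled CPM + 0.5) was tested two-sided with limma 3.58.1 (R 4.3.3; trend, robust) in 1 fit of 18 libraries with a term per group, for genes at 1 or more in at least 3 libraries (12344), with Benjamini-Hochberg adjustment over all of them at 0.05. Fold changes are on that scale. Alternatives were other pseudocounts, filters and scalings, edgeR 4.0.16 and DESeq2 1.42.0 on recovered reads, and libraries left out. Members at an absolute log2 change of 1 or more, the largest of each comparison, the 4E-BPs, the kinases and those with an authors' PAS-seq call are given per library; others from 0.5. The design assumed CPM; the values were kept as signal. Promoter windows are from RefSeq (GRCm38.p6; 43 members matched).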

Additional observations from a re-analysis of the deposited data

Results flagged for a closer look

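In 27 members the change from day 4 to day 6 differed between hypomorph and KO cells by at least 0.5 on the log2 scale. In each the interaction was called in limma at an adjusted p under 0.05, and all but Eif2ak2 were higher in the hypomorph. By that p limit alone, 45.7% of all tested genes were called. The share of all genes that also passed the 0.5 limit was not counted. Of the 27 members, the 2 changes had opposite signs in 16, counted by sign alone. Some hypomorph changes among these were small, such as 0.02 for Eif2b3 and 0.07 for Eif3j1. Equal library totals moved the median hypomorph change of all members from 0.08 to −0.09. The 16 were not recounted with that scaling, nor was the share over all genes counted. The difference was 1.66 for Eif1 (−0.21 in KO, 1.46 in hypomorph), −1.14 for Eif2ak2 (0.37 and −0.77) and 1.03 for Eif1b (−0.48 and 0.55). In the cap-binding group it was 0.89 for Eif4e (−0.73 and 0.17), 0.79 for Eif4a2, 0.65 for Eif4g2 and 0.54 for Eif4a1. In eIF3 it was 0.86 for Eif3i, 0.84 for Eif3a, 0.83 for Eif3m, 0.78 for Eif3c, 0.76 for Eif3j1, 0.63 for Eif3e and 0.55 for Eif3d. In the ternary complex and start codon group it was 0.85 for Eif2s2, 0.83 for Eif1ax, 0.82 for Eif5b, 0.65 for Eif2s1, 0.63 for Eif1a, 0.61 for Eif1ad and 0.57 for Eif2d. It was 0.62 for Eif2b1, 0.62 for Eif2b3, 0.89 for Eif2ak3 (0.39 and 1.29), 0.75 for Eif4ebp1 (0.74 and 1.49), 0.74 for Eif6 and 0.58 for Eif5a. The calls of Eif1a, Eif1ad and Eif4a1 were lost in at least 1 alternative. The median of all genes was 0.09 in the same contrast.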

How the results depend on the processing

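Of 144 member results with an absolute log2 change of at least 0.5, 138 were called in every alternative run, 6 lost the call in at least 1 and 0 reversed. Counts of called members moved by more than 1.5 times in these cases. For KO day 2 (8 called) the count was 16 with the compared groups alone and 2 with a depth term; for hypomorph against KO at day 4 (9 called) it was 15 with equal library totals, 16 with quantile normalization, 14 with edgeR, 16 with DESeq2 and 14 with the compared groups alone. Leaving out libraries whose Alb exceeded 100 scaled CPM gave 1 for KO day 2, 3 for KO day 4, 3 for hypomorph day 4 and 21 for KO day 6 against KO day 4; for hypomorph against KO at day 4 limma then called 0 members (4 at an unadjusted p under 0.05, and edgeR and DESeq2 were not run on these libraries). Fewer libraries, 11 with 1 at day 0, entered that fit. With a library left out, counts ranged from 2 to 8 for KO day 2, 9 to 14 for hypomorph day 4 and 1 to 7 for hypomorph against KO at day 4. A change of at least 10 percentage points in the proximal share gave 15 PAS-seq members in place of the 9 called by the authors, beside 66.5% of all genes. Equal library totals moved the median of all genes at hypomorph day 6 from 0.03 to −0.15. The share of rising calls moved by over 10 percentage points at KO day 2 (87.5%, 57.1% with quantile normalization, 50.0% with a depth term), KO day 4 (60.9%, 48.3% with edgeR, 39.1% or 9 rises and 14 falls with a depth term), KO day 6 (24.4%, 34.9% with quantile normalization), hypomorph day 4 (52.9%, 40.9% with DESeq2), hypomorph day 6 (57.1%, 42.9% with equal totals) and hypomorph day 6 against day 4 (62.9%, 50.0% with equal totals). Between the states, the share higher in the hypomorph moved at day 4 (44.4%, 28.6% with edgeR, and 4 of 16 with DESeq2), at day 6 (95.3%, 80.0% with quantile normalization) and in the interaction (97.2%, 84.8% with equal totals). Causes were not tested. With a replicate block the KO day 6 count stayed at 41 and the hypomorph day 6 count was 36; only 10 of 45 same-number library pairs had a correlation of deviations above 0.1 and 4 of 18 libraries correlated best with their own number, so the numbers were not taken to pair the samples.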
